A study of Mus musculus with 354 samples.

Results

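Across single cells sorted from the mouse cochlea, 8 tetraspanin rows of the 55367 genes counted were described: *Cd63*, its processed pseudogene *Cd63-ps*, *Cd9*, *Cd81*, *Cd82*, *Cd151*, *Cd53* and *Cd37*. These genes were selected on the measured levels of *Cd63* and on its correlation with *Timp1* in the same cells, so the levels, detection and *Timp1* correlations of the 8 genes are given as a description without a test. The cells were GFP+ cells sorted from cochleae of mouse pups at P3. CA-ERBB2 pups carried TetON-CAERBB2, a doxycycline-inducible transgene for constitutively active ERBB2, on top of ROSA-floxed-rtTA/GFP and Fgfr3-iCre. Control pups were littermates that had ROSA-floxed-rtTA/GFP plus Fgfr3-iCre but not the transgene, so both groups expressed the recombinase, the transactivator and GFP. The protocol for all samples gave tamoxifen (75 mg/kg) at P0 and P1 and doxycycline (100 mg/kg) at P2, although the treatment is listed as a sample property for CA-ERBB2 cells only. The Fgfr3-iCre line limits the transgene to cells with *Fgfr3* promoter activity, which in the cochlea are supporting cells and some hair cells. Several pups were pooled for each sort. Each genotype had 59 cells on each of 3 plates, and the plate was the replicate because cells of 1 plate share a sort and a library batch.

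Tetraspanins are small membrane proteins that span the membrane several times and gather integrins, immunoglobulin-like proteins and proteases into microdomains. CD63 cycles between the cell surface and late endosomes and lysosomes, is a standard marker of exosomes, and is a known receptor for TIMP1, the secreted inhibitor of matrix metalloproteinases. CD9 and CD81 stay mostly at the cell surface, CD151 and CD82 associate with integrins, and CD53 and CD37 belong to leukocytes.

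The level of *Cd63* in the 6 plate sums, in counts scaled to the plate's total (CPM) after TMM scaling, was 1032, 3669 and 6651 on CA-ERBB2 plates 1, 2 and 3. On Control plates 1, 2 and 3 it was 604.1, 963.6 and 769.2. Every CA-ERBB2 plate thus lay above every Control plate, with the lowest CA-ERBB2 plate close to the highest Control plate. The mean was 3784 ± 2811 CPM (SD, n = 3) in CA-ERBB2 and 779 ± 180 CPM in Control, a ratio of the means of 4.86, and the log2 fold change was 2.28 (SE 0.68). None of the other 6 protein-coding members showed separated plates. Their log2 fold changes lay between -0.05 for *Cd53* (SE 1.41) and 0.24 for *Cd81* (SE 0.63). Across all 21416 genes tested, the plates did not overlap with CA-ERBB2 higher in 4.20%, and with CA-ERBB2 lower in 4.88%. Since the members were chosen on this contrast, nothing is read from the 1 of 8 members whose plates were separated.

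**Figure D1:**
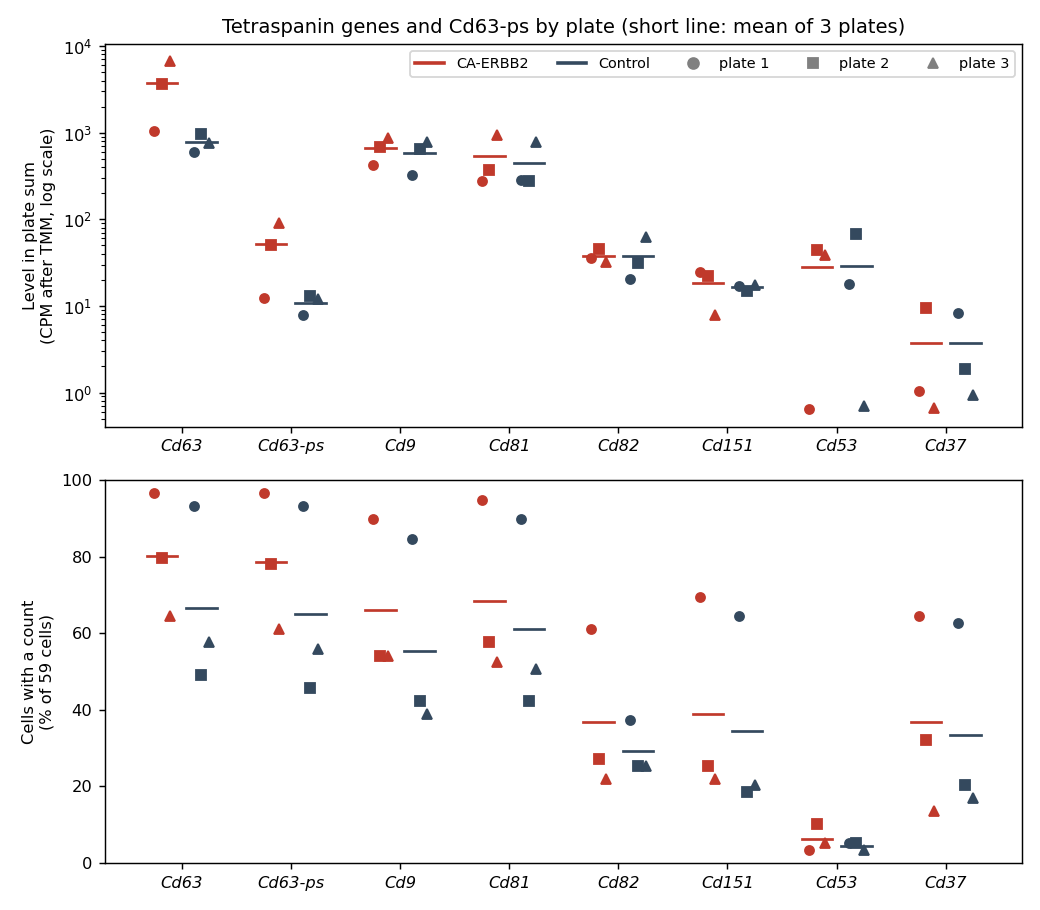
Level of each gene in the plate sums (upper panel, CPM after TMM scaling on a log axis) and share of the 59 cells of a plate with at least 1 count (lower panel, %), with red for CA-ERBB2, dark blue for Control, a symbol for each plate number and a short line for the mean of 3 plates. *Cd63* is at 1032 to 6651 CPM in CA-ERBB2 and 604.1 to 963.6 CPM in Control, and plate 1 of each genotype has the highest share of cells with *Cd63*, *Cd9*, *Cd81*, *Cd82*, *Cd151* and *Cd37*.

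The cells were sequenced to a median of 2866362 counts on genes, with a range of 1443 to 5178221. Shallow cells, with fewer than 100000 counts, numbered 2 in CA-ERBB2 and 33 in Control, the latter on Control plates 2 and 3. Plate 1 of both genotypes stood apart with a median of 10198 and 8679 genes detected per cell, against 1742 to 2954 on the other 4 plates. *Erbb2*, which cannot be told apart from the transgene here, was at 106, 46 and 120 CPM on the CA-ERBB2 plates and 19.8, 3.24 and 12.4 CPM on the Control plates. Its log2 fold change was 2.94 (SE 0.76) with an adjusted p of 0.774 (edgeR quasi-likelihood test). All 10 supporting cell markers had counts on every plate, with summed levels of 1556 to 2724 CPM in CA-ERBB2 and 1807 to 3832 CPM in Control. The 6 mesenchymal markers summed to 2320 to 6565 CPM in CA-ERBB2 and 3399 to 7415 CPM in Control, above the supporting cell markers on 5 of the 6 plates, with *Col1a2* in 134 CA-ERBB2 and 116 Control cells. The 6 hair cell markers summed to 97.8 to 151 CPM and 37.8 to 1008 CPM, and the 4 Schwann and endothelial cell markers to 298 to 687 CPM and 92.2 to 1121 CPM. The part of these cell types in the results was not tested. The labels do not tie plates of the same number to the same animals, and the p-values measure only the spread between plates.

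*Cd63* lies on chromosome 10 (GRCm38, 128900989 to 128912822, plus strand). Its pseudogene, a transcribed processed copy without introns, lies on chromosome 18 (50134726 to 50135600, plus strand). The main transcripts of *Cd63* (1063 bases) and *Cd63-ps* (875 bases) in Gencode M21 aligned without a gap over 858 bases, of which 841 (98.0%) were identical. Of the 17 differing bases, 8 fell in the 714 coding bases of *Cd63*. The longest run without a difference was 253 bases. Of all windows of 50 bases in this *Cd63* transcript, 38.2% were also found in the pseudogene, and of windows of 150 bases 11.4%. Reads from these windows match both transcripts equally well. A counter that leaves out reads with several best places in the genome drops such reads from both genes. The counter settings that the authors list name no option for keeping such reads. The aligned part starts at base 206 of the *Cd63* transcript. By transcript sequence alone, a read within it can be assigned to 1 of the genes only where it covers a differing base. The authors mapped reads to the genome, and how reads across exon junctions of *Cd63* were placed was not examined.

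The study's RT-qPCR primers for *Cd63* (23 and 22 bases) matched the *Cd63* transcript without a mismatch, and matched that of *Cd63-ps* with 0 and 1 mismatch. No RT-qPCR value was used here.

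Counts of *Cd63-ps* followed those of *Cd63* in every plate. The pseudogene was at 12.3, 51.1 and 91.6 CPM on the CA-ERBB2 plates and 7.87, 13.0 and 11.9 CPM on the Control plates. Unlike *Cd63*, the groups overlapped, since CA-ERBB2 plate 1 was below Control plate 2. The log2 fold change was 2.24 (SE 0.78) against 2.28 for *Cd63*. As a share of the summed counts of both genes, *Cd63-ps* took 1.18%, 1.37% and 1.36% on the CA-ERBB2 plates and 1.29%, 1.33% and 1.52% on the Control plates, or 1.34% ± 0.11 (SD, n = 6 plates). In the 223 cells with at least 1000 counts for the pair, the share had a median of 1.29% and a range of 0.634% to 2.83%, over a wide range of *Cd63* levels. Both genes had counts in 251 cells and neither in 91. Only 3 cells had counts for the pseudogene alone, with at most 5 counts, and 9 had counts for *Cd63* alone, with at most 11. The Spearman correlation of the counts was 0.977 across all cells, which share depth as well as sequence. Transcription of the pseudogene and reads of *Cd63* assigned to it cannot be told apart in these counts.

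**Figure D2:**
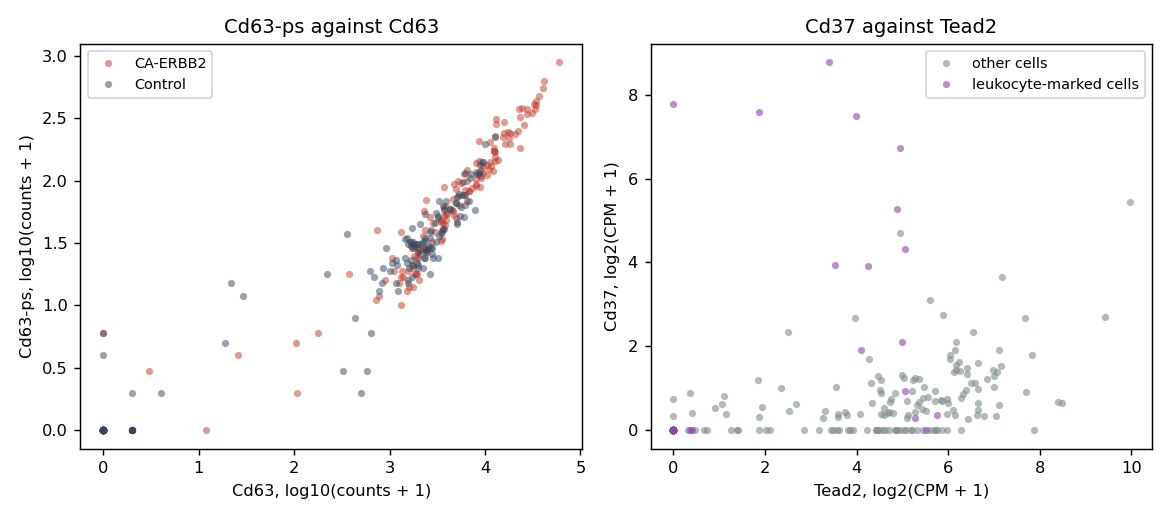
Left, counts of *Cd63-ps* against counts of *Cd63* in each cell, both as log10(counts + 1), in red for CA-ERBB2 and dark blue for Control. The points of both genotypes lie along 1 line, with a median share of 1.29% for the pseudogene. Right, *Cd37* against *Tead2* in the same cells as log2(CPM + 1), with cells that carry leukocyte markers in purple. The *Cd37* values of the other cells are low and occur almost only where *Tead2* has counts.

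*Cd63* had at least 1 count in 57, 47 and 38 of 59 cells on CA-ERBB2 plates 1, 2 and 3, and in 55, 29 and 34 on the Control plates. The mean share was 80.2% ± 16.1 (SD, n = 3) in CA-ERBB2 and 66.7% ± 23.4 in Control. The difference of 13.6 percentage points was smaller than either SD. Without the 35 cells under 100000 counts, of which 33 were Control cells, the difference was 2.29 points. When the remaining cells were also thinned to 100000 counts, the shares became 77.6% ± 17.5 and 76.2% ± 16.2, a difference of 1.44 points. Most of the change in the difference thus came with leaving out the shallow cells, and whether these were empty or failed wells was not tested. Among cells with a count, the median was 869.5, 2009 and 4018 CPM on the CA-ERBB2 plates and 679.4, 875.8 and 586.9 CPM on the Control plates, so that CA-ERBB2 plates 2 and 3 were well above the Control plates and plate 1 was slightly below Control plate 2. The highest single cell held between 6.05% and 11.2% of the *Cd63* counts of its plate.

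*Cd9*, a surface tetraspanin that binds the immunoglobulin-like proteins Igsf8 and Ptgfrn, was at 428, 689 and 863 CPM on the CA-ERBB2 plates and at 329, 647 and 790 CPM on the Control plates. The groups overlapped, with a log2 fold change of 0.17 (SE 0.52). It was detected in 117 CA-ERBB2 and 98 Control cells, and after thinning the mean shares were 59.8% and 63.1%. *Cd81*, its close relative and a co-receptor on B cells, was at 273, 373 and 949 CPM in CA-ERBB2 and 282, 276 and 789 CPM in Control. Here plate 3 was the highest of both genotypes and the groups overlapped (log2 fold change 0.24, SE 0.63). On Control plate 3 a single cell at 19832 CPM held 26.3% of the *Cd81* counts. *Cd81* was found in 121 CA-ERBB2 and 108 Control cells.

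*Cd82*, known as a suppressor of metastasis that dampens integrin and growth factor receptor signalling, was at 35.4, 45.3 and 32.0 CPM in CA-ERBB2 and 20.5, 31.6 and 62.4 CPM in Control. The log2 fold change was -0.02 (SE 0.61), with overlapping groups. It was detected in 65 and 52 cells. *Cd151*, the partner of laminin-binding integrins, was at 24.9, 21.9 and 7.91 CPM in CA-ERBB2 and 17.2, 15.1 and 17.5 CPM in Control. CA-ERBB2 plate 3 was the lowest of all 6 and the other CA-ERBB2 plates were the highest, so the groups overlapped around a log2 fold change of 0.14 (SE 0.73). It was detected in 69 and 61 cells. After thinning, the mean shares were 29.6% and 32.9% for *Cd82* and 27.3% and 33.9% for *Cd151*, in CA-ERBB2 and Control respectively. For both genes the SD between plates exceeded these differences.

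*Cd53*, a tetraspanin of leukocytes, had counts in 11 CA-ERBB2 and 8 Control cells. Its plate levels were 0.641, 44.5 and 38.4 CPM in CA-ERBB2 and 17.9, 67.9 and 0.695 CPM in Control, with a single cell holding 51.2% to 93.9% of the counts of each plate. Leukocyte and macrophage markers (12 genes, among them *Ptprc* and *Csf1r*) were used to mark cells in which at least 4 of the 12 reached 10 CPM. There were 12 such cells in CA-ERBB2 and 11 in Control. Of the 16 cells with *Cd53* at 10 CPM or more, 15 were among these 23, and the 23 cells held 99.0% of all *Cd53* counts while holding 7.60% of all counts. Several of the marked cells also had counts of *Cd9*, *Cd81*, *Cd82*, *Cd151* and *Timp1*. Most marked cells with this mixed profile sat in column 12 of their plate, in rows A to D. These positions made up 4 of the 59 wells of a plate. Whether each marked cell was a single leukocyte was not tested. Without wells A12 to D12 of each plate, the log2 fold change of *Cd53* was -0.69, against -0.05 with all cells. All 12 markers had counts on every plate, with summed levels of 78.2 to 1150 CPM in CA-ERBB2 and 643 to 2241 CPM in Control.

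*Cd37*, which is also a tetraspanin of leukocytes and is best known from B cells, showed 2 kinds of signal. Its plate levels were 1.05, 9.37 and 0.665 CPM in CA-ERBB2 and 8.25, 1.88 and 0.943 CPM in Control, with overlapping groups. Although *Cd37* had counts in 124 cells, it reached 10 CPM in only 12, of which 9 were leukocyte-marked, and the 23 marked cells held 83.8% of its counts. The other 112 cells had *Cd37* below 10 CPM. In the 331 unmarked cells, *Cd37* was seen with a median of 2 counts, in 108 of the 153 cells with *Tead2* and in 2 of the 178 cells without it. *Tead2*, a transcription factor of the Hippo pathway, is the neighbour of *Cd37* on the opposite strand, and their annotated exons overlap by 13 bases (chr7:45233632-45233644, GRCm38). The Spearman correlation of *Cd37* with *Tead2* was 0.775 across the unmarked cells and 0.543 to 0.891 within the 6 plates. Cells also differ in the number of genes detected, with which *Cd37* had a rho of 0.550 across CA-ERBB2 cells. *Tead2* itself was alike in all plates, at 25.4 to 34.1 CPM in CA-ERBB2 and 30.9 to 35.8 CPM in Control. Low *Cd37* counts and reads of *Tead2* transcripts cannot be told apart in these counts.

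Exons of other members also overlapped genes on the opposite strand. *Cd9* shared 218 bases with *Gm26728*, *Cd151* shared 193 bases with *Gm10575* and *Cd81* shared 104 bases with *R74862*. Across all cells, *Gm26728* followed *Cd9* (rho 0.914) with 55590 counts against 510643. *R74862* followed *Cd81* (rho 0.823) with 40850 against 389882. *Gm10575* followed *Cd151* less closely (rho 0.513) with 5539 against 17317. Cells also differ in the number of genes detected. Across CA-ERBB2 cells the rho with that number was 0.577 for *Cd9*, 0.503 for *Cd81* and 0.688 for *Cd151*. No annotated exon of *Cd63* overlapped another gene. The files were counted on the reverse strand, and whether the library kit keeps the strand is not given in the sources used here, so reads from these overlaps may belong to either gene.

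Levels of different genes were compared per kilobase of annotated exon. In CA-ERBB2 the order by mean CPM per kb was *Cd63* (1028 ± 764, SD), *Cd9* (323 ± 107), *Cd81* (185 ± 127), *Cd63-ps* (59.1 ± 45.3), *Cd53* (16.0 ± 13.6), *Cd82* (12.5 ± 2.29), *Cd151* (6.66 ± 3.31) and *Cd37* (1.05 ± 1.40). The ranges of neighbours from *Cd63* down to *Cd82* overlapped between plates, whereas *Cd82* lay above *Cd151* and *Cd151* above *Cd37* on all plates. Within each CA-ERBB2 plate, however, *Cd63* was above *Cd9*, *Cd9* above *Cd81*, *Cd81* above *Cd63-ps* and *Cd63-ps* above *Cd53*. *Cd53* and *Cd82* changed order between plates. In Control, *Cd9* (288 ± 116) and *Cd63* (212 ± 49) came first and overlapped, followed by *Cd81* (156 ± 102). *Cd53* (16.6 ± 20.0), *Cd82* (12.7 ± 7.22) and *Cd63-ps* (12.5 ± 3.08) overlapped one another below these, and *Cd151* (6.05 ± 0.48) and *Cd37* (1.05 ± 1.13) came last. The exons of all annotated *Cd63* transcripts add up to 3682 bases, while its longest coding transcript has 1109. Per kb of longest coding transcript, *Cd63* was first in Control as well, with a mean of 702 against 479 for *Cd9*.

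*Cd63* and *Timp1* went together across the cells of CA-ERBB2 plates 2 and 3. *Timp1* was at 719, 19457 and 22151 CPM on the CA-ERBB2 plates and 17.6, 172 and 98.9 CPM on the Control plates. On CA-ERBB2 plate 1 a single cell held 54.0% of its counts. Spearman's rho between *Cd63* and *Timp1*, both as log2(CPM + 1), was 0.598 over the CA-ERBB2 cells and 0.596 over the 105 of them with a count of *Timp1*. Pearson's r was 0.504. Within CA-ERBB2 plates 1, 2 and 3 the rho was 0.229, 0.611 and 0.700, and within the Control plates it was 0.006, 0.152 and 0.372. Plates 2 and 3 thus carried the relation, and these were also the plates with high *Timp1*. The cells of a plate share the sort and differ in depth. Across CA-ERBB2 cells the rho of *Cd63* was 0.492 with the total count and 0.264 with the number of genes detected.

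**Figure D3:**
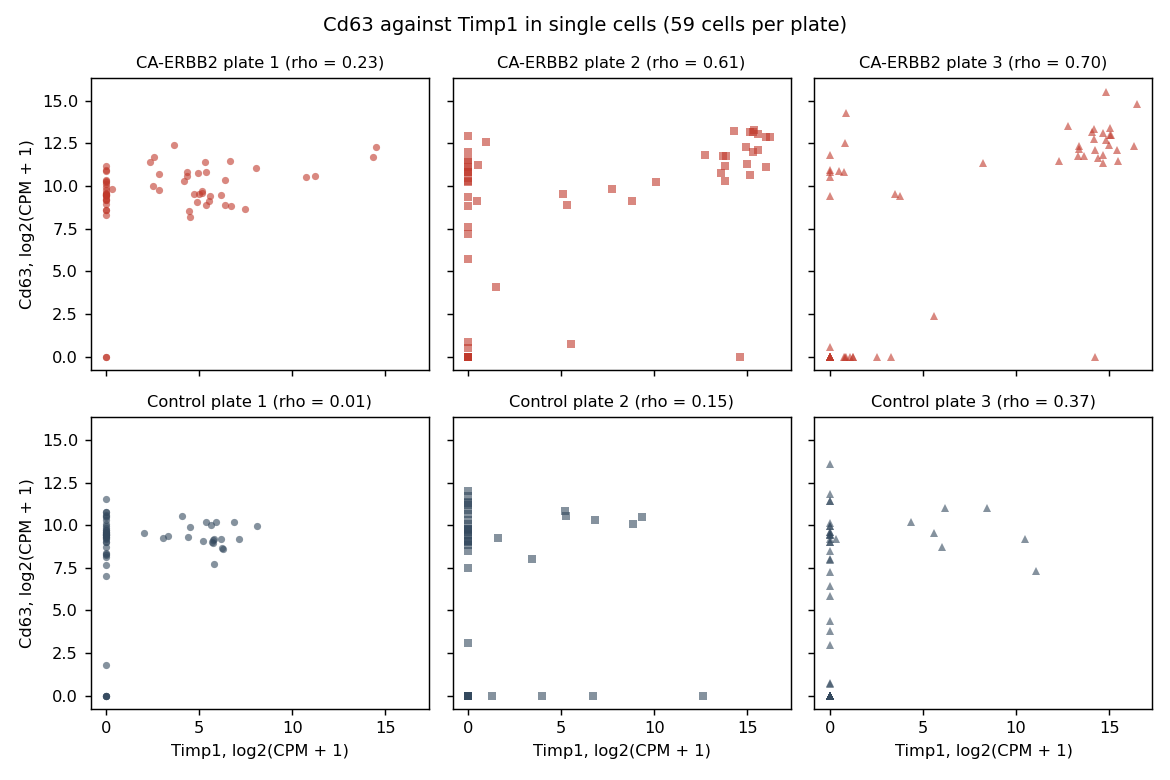
*Cd63* against *Timp1* in single cells, both as log2(CPM + 1), with 1 panel for each plate, CA-ERBB2 in the upper row and Control in the lower row. CA-ERBB2 plates 2 and 3 have a group of cells at the upper right with high values of both genes, and the correlations are 0.611 and 0.700 there against 0.229 on CA-ERBB2 plate 1.

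*Cd63-ps* was correlated with *Timp1* as closely as *Cd63*, and the other 6 members less closely. Over the CA-ERBB2 cells the rho was 0.596 for *Cd63-ps* (Pearson's r 0.602), 0.255 for *Cd9*, 0.192 for *Cd81*, 0.106 for *Cd82*, 0.079 for *Cd37*, 0.031 for *Cd53* and -0.038 for *Cd151*. For comparison, the mean of the 3 within-plate correlations with *Timp1* was computed for the 5348 genes detected in at least 20% of the cells of every CA-ERBB2 plate. Its median over these genes was 0.148, with a 5th percentile of -0.026 and a 95th percentile of 0.324. By this measure *Cd63* (0.513) was in the 9th place and *Cd63-ps* (0.50) in the 12th. *Spp1*, *Mmp9* and *Dmp1*, genes of secreted matrix proteins and a matrix protease, held places 1, 3 and 4. *Cd81* (0.239) and *Cd9* (0.238) were near the 80th percentile, *Cd82* (0.154) was near the median and *Cd151* (-0.004) was at the 7.5th percentile. Among the members, values beyond the 95th percentile were thus found for *Cd63* and its pseudogene. *Cd53* and *Cd37* were not detected widely enough to be ranked. The place of *Cd63* differed between plates, from 1014 on plate 1 to 16 on plate 2 and 6 on plate 3.

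**Figure D4:**
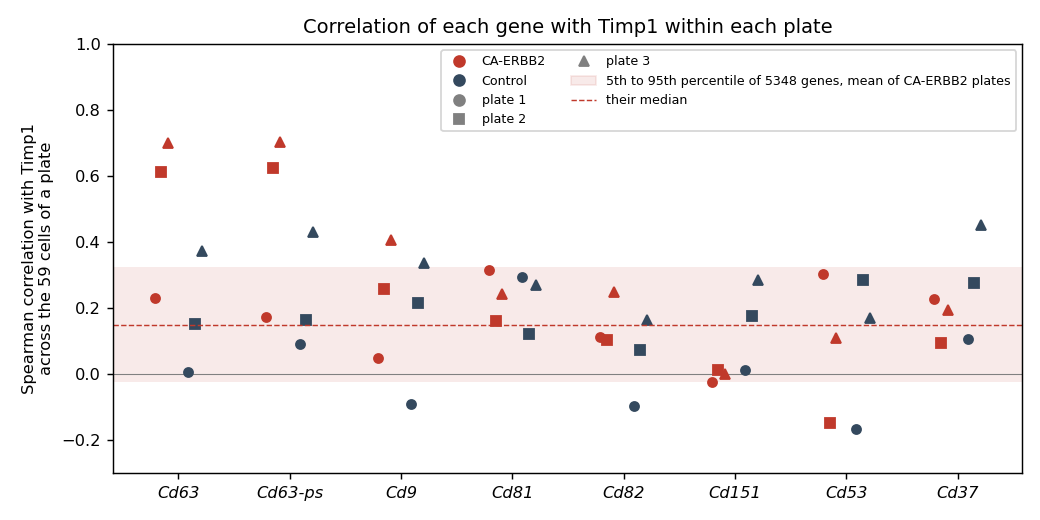
Spearman correlation of each gene with *Timp1* across the 59 cells of a plate, in red for CA-ERBB2 and dark blue for Control, with a symbol for each plate number. The shaded band spans the 5th to 95th percentile (-0.026 to 0.324) and the dashed line the median (0.148) of the mean CA-ERBB2 correlation over 5348 genes. *Cd63* and *Cd63-ps* lie above the band on CA-ERBB2 plates 2 and 3, and the values of *Cd151* in CA-ERBB2 are near 0.

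*Spp1*, *Timp1*, *Mmp9* and *Dmp1* were all at 100 CPM or more in 36 CA-ERBB2 cells (3, 14 and 19 on plates 1, 2 and 3). *Cd63* had counts in all 36, with a median of 4554 CPM, and in 106 of the other 141 CA-ERBB2 cells. The median over all 141, cells without counts included, was 720 CPM, and by plate it was 769.9, 663.7 and 0 CPM. These 36 cells held 54.5% of the *Cd63* counts and 26.0% of all counts of the CA-ERBB2 plates. The corresponding shares were 38.3% for *Cd9*, 26.6% for *Cd81*, 15.1% for *Cd82* and 11.2% for *Cd151*. For *Cd53* and *Cd37*, which reached 10 CPM in few cells, they were 42.4% and 8.40%. With the plates pooled, *Cd63*, *Cd9* and *Cd53* had more of their counts in these cells than the cells' share of all counts, and *Cd82*, *Cd151* and *Cd37* less. *Timp1* helped to define these cells, and the genes were selected on the correlation of *Cd63* with *Timp1* in the same cells. The share of *Cd63* therefore restates that selection and is a description only. Within plates *Cd82* and *Cd151* varied, with 7.71% of *Cd82* counts against 5.70% of all counts on plate 1 and 69.3% of *Cd151* counts against 49.0% on plate 3. *Cd81* had 14.0% against 5.70% on plate 1 and 38.9% against 31.7% on plate 2, but 30.8% against 49.0% on plate 3. *Cd53* had 1.54% against 31.7% on plate 2, and *Cd37* 93.3% against 49.0% on plate 3.

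Similarity to *Cd63* was measured as the mean within-plate Spearman correlation over the 3 CA-ERBB2 plates among 5347 genes, leaving out *Cd63-ps*, whose value was 0.959. The median over these genes was 0.182. The 8 genes with the highest values were *Tagln2* (0.601), *Nme1* (0.564), *Eif5a* (0.552), *Arpc2* (0.537), *Sdc1* (0.532), *Tnc* (0.531), *Ptgis* (0.519) and *Sec61g* (0.517). *Tagln2* and *Arpc2* encode proteins of the actin cytoskeleton, *Sdc1* encodes the heparan sulphate proteoglycan syndecan-1 and *Tnc* the matrix protein tenascin-C. All 8 had a correlation above 0.4 on each of the 3 CA-ERBB2 plates, including plate 1, on which *Timp1* did not reach this value. Among the other protein-coding members, *Cd9* was closest to *Cd63* (0.579, 0.272 and 0.448 on plates 1 to 3), and *Cd81* and *Cd151* were farther away (means of 0.141 and 0.208). In Control, the median over all genes was 0.321, and *Cd9* had correlations of -0.032, 0.698 and 0.443 with *Cd63*. The 8 genes ranged there from 0.008 (*Sec61g* on plate 1) to 0.651 (*Nme1* on plate 2). *Nme1*, *Eif5a*, *Arpc2* and *Sec61g* were above 0.4 on both Control plates 2 and 3. The median over all genes was 0.430 and 0.383 on these 2 plates, so a value above 0.4 was not unusual there. On CA-ERBB2 plates 1, 2 and 3 this median was 0.158, 0.128 and 0.244.

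Since the levels of *Cd63* and *Timp1* moved together across cells, their promoter windows are shown (250 bases before to 50 after the start, RefSeq on GRCm38.p6, plus strand for both). At least 1 such window was given for 7 of the 8 members. The windows were searched on both strands for an AP-1 site (TGANTCA), an E-box (CACGTG), a GC box (GGGCGG) and a TATA box (TATAAA), and capitals mark a match. The *Cd63* window is chr10:128909095-128909394 and the *Timp1* window chrX:20869916-20870215.

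Cd63 promoter: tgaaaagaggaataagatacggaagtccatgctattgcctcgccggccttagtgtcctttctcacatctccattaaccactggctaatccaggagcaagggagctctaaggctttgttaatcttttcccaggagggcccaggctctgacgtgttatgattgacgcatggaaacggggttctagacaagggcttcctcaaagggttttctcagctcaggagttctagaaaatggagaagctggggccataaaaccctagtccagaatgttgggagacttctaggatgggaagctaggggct

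Timp1 promoter: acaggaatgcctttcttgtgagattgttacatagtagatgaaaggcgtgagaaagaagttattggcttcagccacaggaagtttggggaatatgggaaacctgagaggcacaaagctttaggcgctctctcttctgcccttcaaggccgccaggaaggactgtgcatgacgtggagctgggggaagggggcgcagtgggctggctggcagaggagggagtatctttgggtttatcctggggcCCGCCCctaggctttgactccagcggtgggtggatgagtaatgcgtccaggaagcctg

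The *Cd63* window held none of the 4 motifs, and the *Timp1* window held 1 GC box on the opposite strand. Of 32851 promoter windows of the same length, 7.81% held the AP-1 site, 7.15% the E-box, 35.7% the GC box and 13.6% the TATA box. The GC box was present 2 times in the *Cd9* window and 3 times in the *Cd81* window, which also held 1 TATA box. It was found in 2 of the 4 windows of *Cd82* and in 1 of the 2 windows of *Cd151*. The *Cd37* window held 1 GC box and 1 E-box, and the *Cd53* window held none of the motifs. A match or its absence describes these letters only.

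The other genes of the family and of its surroundings were tested in the same edgeR fit. Over all 21416 genes, 0.00467% (1 gene) were called at an adjusted p under 0.05 with a log2 fold change above 1, and 5.16% had an unadjusted p under 0.05. None of the 23 tested of 24 other tetraspanin genes was called (0 called by edgeR, 1 by DESeq2). At an unadjusted p under 0.05, 3 were higher (*Tspan1*, *Tspan6* and *Tspan32*) and 2 lower (*Tspan10* and *Prph2*). The median log2 fold change of the list was -0.37, against -0.02 over all genes tested. The CA-ERBB2 plates all lay above the Control plates for 3 of the 23, and all below for 2. Over all genes tested these shares were 4.20% and 4.88%. The 3 with the highest levels were *Tspan3*, *Tspan6* and *Tspan31*. *Tspan6*, a tetraspanin of endosomes, was at 242, 847 and 1437 CPM on the CA-ERBB2 plates and 170, 417 and 300 CPM on the Control plates. This is the order of plates seen for *Cd63* in CA-ERBB2, with an overlap between groups (log2 fold change 1.51, SE 0.66, edgeR adjusted p = 0.911). *Tspan3* was at 428, 235 and 420 CPM against 521, 429 and 934 CPM, and after TMM scaling the CA-ERBB2 plates were below the Control plates by a narrow margin (log2 fold change -0.80, SE 0.51, edgeR adjusted p = 0.918). *Tspan31* overlapped between groups at 144 to 240 CPM and 153 to 295 CPM.

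*Tspan32*, a tetraspanin of blood cells named here after its values were seen, was at 3.00, 51.6 and 64.0 CPM in CA-ERBB2 and 1.85, 0.017 and 2.74 CPM in Control. The groups did not overlap, and the log2 fold change was 4.69 (SE 1.56, edgeR adjusted p = 0.911). It was the other tetraspanin called by DESeq2 on the same genes (adjusted p = 0.029) and by edgeR without a filter on low counts (adjusted p = 0.027), and over 14 alternatives its adjusted p from these tools lay between 0.0266 and 1.0.

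Among 13 partner proteins of tetraspanins, none was called by edgeR and 1, *Timp1*, by DESeq2. *Timp1* was used in choosing the members, so its values and its call are a description only. At an unadjusted p under 0.05, *Timp1* and *Sdc1* were higher and *Met*, the HGF receptor, was lower. The median log2 fold change of the list was -0.06. The CA-ERBB2 plates all lay above the Control plates for 2 of the 13, *Timp1* and *Sdc1*, and all below for 1. Over all genes tested these shares were 4.20% and 4.88%. *Timp1*, *Epcam* and *Itgb1* had the highest levels. *Itgb1*, the common integrin beta subunit, was at 436, 292 and 280 CPM against 352, 419 and 348 CPM, and *Epcam*, an epithelial adhesion protein, at 757, 334 and 430 CPM against 238, 169 and 540 CPM, both with overlapping groups. *Igsf8* and *Ptgfrn*, the classical partners of CD9 and CD81, also overlapped (log2 fold changes 0.01 and 0.36). *Sdc1* was at 48.8, 124 and 336 CPM in CA-ERBB2 and 23.7, 39.4 and 16.1 CPM in Control. It was thus separated between groups with a log2 fold change of 2.69 (SE 0.74, edgeR adjusted p = 0.806, and 0.0388 to 1.0 over 14 alternatives).

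Of 22 genes of late endosomes, lysosomes and exosome formation, where CD63 protein resides, none was called by edgeR or DESeq2, and 0 had an unadjusted p under 0.05 in edgeR. Their median log2 fold change was -0.25, with 8 above and 14 below 0. *Ctsb*, a lysosomal protease, was at 360, 698 and 603 CPM on the CA-ERBB2 plates and 574, 1025 and 1173 CPM on the Control plates. *Laptm4a*, a lysosomal membrane protein, was at 338, 433 and 689 CPM and 368, 539 and 438 CPM. *Ctsl*, also a lysosomal protease, was at 322, 173 and 325 CPM and 506, 439 and 657 CPM, the gene of this list whose CA-ERBB2 plates all lay below the Control plates (log2 fold change -0.97, SE 0.48, edgeR adjusted p = 0.911). *Lamp1* and *Sdcbp*, the latter encoding the CD63-binding adaptor syntenin, had log2 fold changes of -0.19 (SE 0.49) and 0.30 (SE 0.51).

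*Cd63* is also expressed by macrophages and pigment cells. In the leukocyte-marked cells its median was 1460 CPM against 603 CPM in the other cells, and these 23 cells held 7.01% of its counts. Without them the log2 fold change of *Cd63* was 2.36. Summed over 5 melanocyte markers, the level was 19.1 to 286 CPM in CA-ERBB2 and 37.4 to 871 CPM in Control. By marker, the CA-ERBB2 and Control cells with counts numbered 56 and 38 for *Pmel*, 38 and 39 for *Dct*, 13 and 8 for *Tyr*, 4 and 5 for *Mlana* and 3 and 0 for *Tyrp1*. The part of melanocytes in the *Cd63* level was not tested. CA-ERBB2 plate 3 weighed most on the level. The log2 fold change of *Cd63* was 1.61 with that plate left out and 2.72 with CA-ERBB2 plate 1 left out.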

How the data were processed

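Single GFP+ cells from 3 CA-ERBB2 and 3 Control plates were profiled with SMART-Seq Single PLUS. The authors trimmed the reads with fastp, mapped them to GRCm38 with STAR (2.7.6a) and the Gencode M25 annotation, and counted them on exons by gene name with featureCounts (Subread 2.0.1) on the reverse strand. Each deposited file holds the unnormalized counts of 1 cell as whole numbers. The paper refers to UMI (unique molecular identifier) counts in its quality control, but its library and read processing methods describe no such identifiers.

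The counts of a plate's cells were added up, and the 6 sums were compared in edgeR (4.0.16, R 4.3.3), using TMM factors (0.688 to 1.325), filterByExpr and the quasi-likelihood test with Benjamini-Hochberg adjustment. The plate sums held 108357282 to 188636940 counts, and no 2 cells were identical. All cells were used. Detection meant at least 1 count, and cells were also thinned to 100000 counts. Genes named from the lists are those called or, with none called, the 3 with the highest levels, and the 8 genes most like *Cd63*. *Tspan32*, *Sdc1*, *Igsf8*, *Ptgfrn*, *Met*, *Lamp1*, *Sdcbp*, *Tead2* and the other genes at an unadjusted p under 0.05 were named after their values were seen. The members and lists were chosen with earlier results of these data known. Positions and transcripts are from Gencode M21 (GRCm38). Alternatives were DESeq2 (1.42.0), its size factors, no filter, the plate number as a block, filters on cells and wells, and leaving out each plate. Leaving out leukocyte-marked cells, leaving out shallow cells without thinning, and using library totals in place of TMM were chosen later, with the data in view. On simulated counts the edgeR step was checked first. Doublets were not called, since the sort used gates on scatter.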

Additional observations from a re-analysis of the deposited data

How the results depend on the processing

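The log2 fold change of *Cd63* was above 0 in all 16 alternatives, from 1.61 to 2.72 in those based on plate sums, with 1.76 for library totals in place of TMM, a scaling that moved the median over all genes from -0.02 to -0.27. The difference between the medians of log2(CPM + 1) over cells was 5.73, where the median of *Cd63* over the cells was 639.3, 0 and 19.5 CPM on Control plates 1, 2 and 3. The count of genes called was 1, and it was 235 with DESeq2, 285 without a filter on low counts, 1106 at an unadjusted p under 0.05, and 0 to 2 when each plate was left out in turn (2 without CA-ERBB2 plate 1, and 0 without Control plate 1 or 3). Of the other tetraspanins, 1 was called with DESeq2 and 1 without the filter. Of the partners, 1 was called with DESeq2 (*Timp1*, used in choosing the members) and 2 without the filter (*Timp1* and *Sdc1*). The causes were not tested. The difference in detection of *Cd63* lay between 1.44 and 26.8 points, the highest without Control plate 1 and 4.80 to 5.37 without Control plate 2 or CA-ERBB2 plate 1, and its correlation with *Timp1* between 0.488 and 0.654 in all alternatives run. For the other members, 243 of 265 values moved by less than the spread between plates, and the signs of the level differences of *Cd9*, *Cd81*, *Cd82*, *Cd151*, *Cd53* and *Cd37* depended on the setting. With the replicate number as a block, the log2 fold change of *Cd63* was 1.94 and 1 gene was called. Plates of the same number deviated from their group means with correlations of 0.215, 0.082 and 0.077. The correlations of plates with different numbers were lower, from -0.110 to 0.014. As the labels do not tie plates by number, the main fit had no block, and the block was run as an alternative. Of the cells with under 100000 counts, 33 were Control and 2 CA-ERBB2.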
